A study of Mus musculus with 16 samples.

Results

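Broad open-chromatin regions of mouse embryonic stem cells (ESCs) are described here. They are 829 merged regions, of 50132 merged ESC regions in all, that held at least 1 ATAC-seq peak of 2000 bp or more in at least 1 of 12 ESC peak lists. ATAC-seq marks open DNA by the insertion of a transposase, and each list holds the stretches that the authors called open in 1 library. Only peaks on chromosomes 1 to 19, X or Y entered. The 45 windows of 1 Mb in which replicate 1 of the backbone ESCs had 5 or more peaks were left out. The 2191 remaining broad peaks were merged where they overlapped by at least 1 bp. Width in the ESC lists chose the regions, so widths and presence in ESC lists are given as descriptions with no test.

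All ESCs carried an Rx:GFP knock-in, a reporter at the eye field gene Rax, and were kept in 2i+LIF medium. Of the 6 ESC groups of 2 libraries each, 3 lack both Wdr5 and p53 and were stably transfected with a plasmid: the empty backbone, WDR5 with the changes named S91K-Y191F, or wild-type WDR5 (WDR5WT). A further 2 groups are the p53 knockout clones C9 and H9, each a single clone, and the last is the parental line. Embryoid bodies, the aggregates in which ESCs differentiate, were made by the SFEBq method with 5% KSR in GMEM and 2% matrigel from day 1. They were double knockout for Wdr5 and p53 (2 libraries, day not in the labels) or parental (2 libraries, day 4). The labels do not say that replicates were separate cultures, so p-values measure only the spread between these libraries. The lists hold no read counts, and the depth behind every value is unknown.

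Open regions in ESCs are mostly short and lie at promoters and enhancers, where transcription factors keep nucleosomes off the DNA. Long open stretches are known at CpG-rich promoters, which tend to stay free of DNA methylation, and at dense enhancer clusters. WDR5 is a scaffold of the MLL and COMPASS complexes that methylate histone H3 at lysine 4, a mark of active promoters, and p53 (gene Trp53) is a transcription factor induced by stress.

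Only promoter DNA within the broad regions was examined, and 314 of the 829 regions hold no annotated transcription start. RefSeq promoter windows (GRCm38.p6, the build of mm10) span 250 bases before to 50 bases after a transcription start, and 774 of the 32851 windows used had their start in a broad region, for 653 genes. The windows below were chosen to show a range of CpG content in broad regions, beside Nanog, whose open region was never broad. The regions of Rap2b, Nrp1, Jun and Vim are described further on, and Tle1 was added only after its values were seen. Each window is printed 5′ to 3′ on the strand of the gene, with every CpG in capitals. The windows belong to Rap2b, a small GTPase of the Ras family (chr3:61364257-61364556, plus strand), Tle1, a Groucho-type corepressor (chr4:72200844-72201143, minus strand), Nrp1, a receptor for semaphorins and VEGF (chr8:128358823-128359122, plus strand), Jun, a subunit of the AP-1 factor (chr4:95052173-95052472, minus strand), Vim, the intermediate filament vimentin (chr2:13574061-13574360, plus strand), and Nanog, a pluripotency factor (chr6:122707239-122707538, plus strand).
Rap2b: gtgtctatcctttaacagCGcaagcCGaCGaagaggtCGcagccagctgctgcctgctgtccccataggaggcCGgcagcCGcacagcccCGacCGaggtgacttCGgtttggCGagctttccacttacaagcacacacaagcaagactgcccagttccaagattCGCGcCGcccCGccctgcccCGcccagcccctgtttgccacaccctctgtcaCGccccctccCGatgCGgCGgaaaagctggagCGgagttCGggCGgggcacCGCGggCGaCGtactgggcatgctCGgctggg
Tle1: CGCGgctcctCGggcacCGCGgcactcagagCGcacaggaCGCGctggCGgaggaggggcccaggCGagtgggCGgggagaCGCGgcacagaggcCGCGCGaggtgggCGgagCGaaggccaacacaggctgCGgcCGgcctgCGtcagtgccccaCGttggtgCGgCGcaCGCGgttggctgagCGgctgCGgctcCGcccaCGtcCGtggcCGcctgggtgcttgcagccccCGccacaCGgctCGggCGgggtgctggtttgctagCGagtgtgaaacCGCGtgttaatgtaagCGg
Nrp1: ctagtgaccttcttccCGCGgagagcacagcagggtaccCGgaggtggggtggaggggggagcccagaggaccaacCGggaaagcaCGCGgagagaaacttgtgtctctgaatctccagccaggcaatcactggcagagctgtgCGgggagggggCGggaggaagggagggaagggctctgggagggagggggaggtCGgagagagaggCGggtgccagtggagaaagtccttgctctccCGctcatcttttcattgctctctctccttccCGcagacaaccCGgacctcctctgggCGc
Jun: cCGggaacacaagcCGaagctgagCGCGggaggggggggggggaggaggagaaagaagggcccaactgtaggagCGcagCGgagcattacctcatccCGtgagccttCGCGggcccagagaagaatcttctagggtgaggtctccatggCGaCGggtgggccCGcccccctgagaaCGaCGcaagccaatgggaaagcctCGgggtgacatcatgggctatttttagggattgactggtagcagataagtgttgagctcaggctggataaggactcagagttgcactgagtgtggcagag
Vim: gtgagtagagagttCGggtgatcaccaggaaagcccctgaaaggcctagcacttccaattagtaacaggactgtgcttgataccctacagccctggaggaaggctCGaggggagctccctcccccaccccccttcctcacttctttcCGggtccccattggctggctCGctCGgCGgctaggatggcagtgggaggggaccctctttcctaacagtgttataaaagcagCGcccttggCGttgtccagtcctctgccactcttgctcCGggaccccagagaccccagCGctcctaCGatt
Nanog: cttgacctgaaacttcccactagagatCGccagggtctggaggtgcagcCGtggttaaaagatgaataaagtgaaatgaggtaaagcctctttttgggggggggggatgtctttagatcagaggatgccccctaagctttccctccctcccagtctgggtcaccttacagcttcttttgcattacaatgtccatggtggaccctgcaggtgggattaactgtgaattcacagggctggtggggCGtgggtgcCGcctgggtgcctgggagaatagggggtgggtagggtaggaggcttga
The Tle1 window holds 40 CpGs in 300 bases and the Rap2b window 27, whereas the Jun, Nrp1 and Vim windows hold 15, 14 and 11. The Nanog window holds 4. Over its start, peaks were 508 to 1146 bp wide in the 9 ESC lists that had one.

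Promoters in broad regions were rich in CpG. Their windows held a median of 25 CpGs (quartiles 16 and 34) and 66.3% G+C. Windows in other ESC regions held 22 CpGs and 62% G+C (12502 windows), and all windows together held 7 CpGs and 52.7% G+C. The CpG number relative to that expected from base composition was 0.796 in broad regions, 0.774 in other ESC regions and 0.384 over all windows. Promoters in broad regions thus stood near those in other ESC regions and far from the average promoter. The GC box GGGCGG, searched on both strands like all motifs here, was in 72.5% of windows in broad regions, 67.4% in other ESC regions and 35.7% of all windows. The TATA box TATAAA was in 4.39%, 6.05% and 13.6% in the same order, and CCAAT in 37.6%, 38.5% and 37.4%. The E-box CACGTG was in 6.72% of windows in broad regions, against 10.7% in other ESC regions and 7.15% of all. The core NRF1 motif TGCGCA was in 10.98% in broad regions, 14.7% in other ESC regions and 7.76% of all, and the CRE TGACGTCA in 2.58%, 3.41% and 1.79%. A motif match describes letters in a window and is no evidence of binding.

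Most broad regions were only a little over the threshold. Their median merged length was 2272 bp (quartiles 2119 and 2553 bp), against 708 bp for the 49303 other ESC regions. In 627 of 829 the widest peak was under 2500 bp, in 85 it was 3000 bp or more and in 7 it was 5000 bp or more. Just inside the threshold lay regions at Stxbp6, a syntaxin-binding protein gene (2000 bp), Egfr, the EGF receptor gene (2001 bp), and Avpr1a, a vasopressin receptor gene (2002 bp). Just outside lay regions at Msh4 and Syt1 (both 1997 bp) and near Nebl (1999 bp).

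Outside the windows left out, broad peaks were many in WDR5WT, C9 and H9 ESCs and few in the other groups. Backbone ESCs had 8 and 10 broad peaks, S91K-Y191F ESCs 11 and 52, WDR5WT ESCs 355 and 470, clone C9 189 and 299, clone H9 300 and 366, and parental ESCs 116 and 15. The 6 lists of WDR5WT, C9 and H9 ESCs all lay above the 6 lists of backbone, S91K-Y191F and parental ESCs. As group means these are 9 ± 1.41, 31.5 ± 29.0, 412.5 ± 81.3, 244 ± 77.8, 333 ± 46.7 and 65.5 ± 71.4 broad peaks (SD, n = 2 each), in the same order of groups. The number of peaks of any width moved with these counts: lists held 486 and 1424 peaks in backbone ESCs, 3952 and 14835 in S91K-Y191F ESCs and 22924 and 4165 in parental ESCs, and those of WDR5WT, C9 and H9 ESCs held 25572 to 31863. As a share of the list, broad peaks were 1.65% and 0.702% in backbone ESCs, 0.278% and 0.351% in S91K-Y191F ESCs, 1.22% and 1.48% in WDR5WT ESCs, 0.739% and 0.964% in C9, 1.00% and 1.20% in H9, and 0.506% and 0.360% in parental ESCs. In shares, backbone replicate 1 thus stood highest and replicate 2 close to C9 replicate 1. With each list cut to its 3952 peaks of smallest p (the backbone lists are shorter and drop out), 11 and 43 peaks were broad in S91K-Y191F ESCs, 218 and 246 in WDR5WT, 147 and 204 in C9, 198 and 243 in H9, and 83 and 15 in parental ESCs. The order of the 2 sets of lists was the same at that length, a setting chosen after seeing the data. The cut kept all 3952 peaks of S91K-Y191F replicate 1 but only the peaks of smallest p in longer lists. Broad peaks of WDR5WT, C9 and H9 lists stood at a median percentile of 88.4 to 93.8 by −log10 p. The cut thus keeps them preferentially in long lists and does not remove the part of list length. All these counts leave out the windows set on backbone replicate 1. Whole lists held 141 and 136 broad peaks in backbone ESCs, 135 and 155 in S91K-Y191F and 163 and 110 in parental ESCs. They held 370 and 490 in WDR5WT ESCs, 198 and 312 in C9, and 312 and 375 in H9. The order of the 2 sets of lists was the same there, with smaller gaps. As shares of whole lists, both backbone lists stood highest. The WDR5WT, C9 and H9 libraries are all p53-deficient with wild-type WDR5, and no batch is named in the labels, so genotype and any difference in preparation or depth cannot be told apart.

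**Figure D1:**
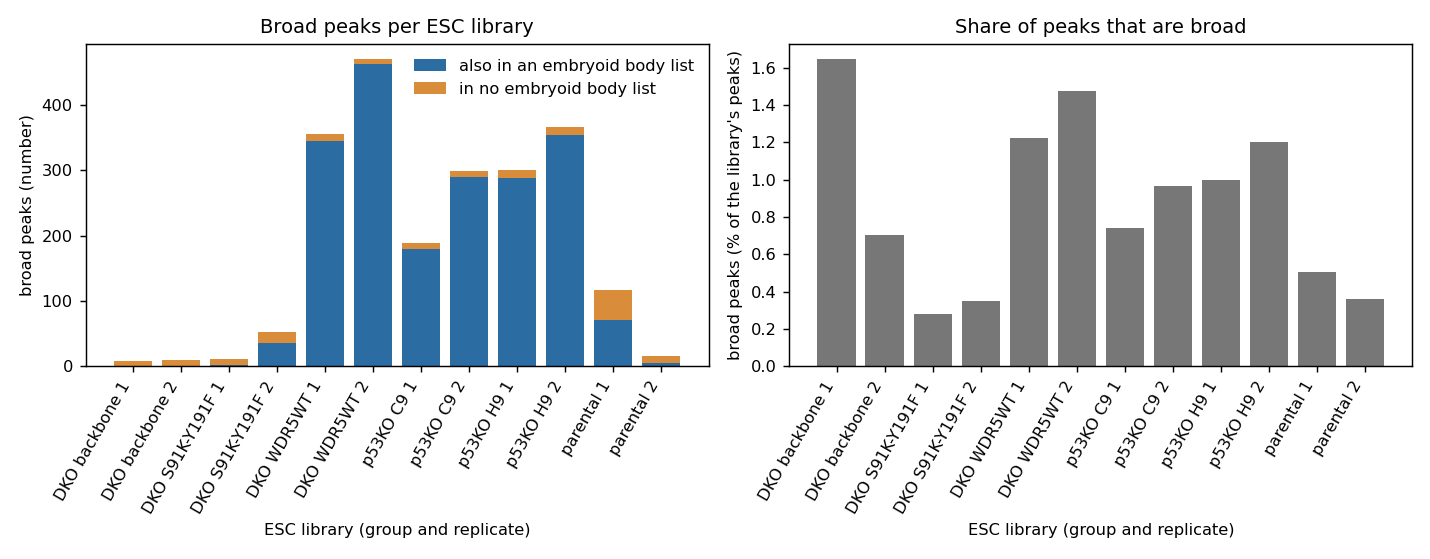
Number of broad peaks (left, bars split by presence in any embryoid body list) and broad peaks as a percentage of all peaks (right) in each of the 12 ESC libraries. WDR5WT, C9 and H9 libraries hold 189 to 470 broad peaks and the others 8 to 116, while the backbone lists, with few peaks of any width, have shares of 1.65% and 0.702%. Peaks in the windows left out are not counted.

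The makeup of the broad peaks also differed between the 2 sets of lists. In WDR5WT ESCs 345 of 355 and 463 of 470 broad peaks overlapped a broad region with a peak in at least 1 embryoid body list. In C9 these were 180 of 189 and 289 of 299, and in H9 288 of 300 and 354 of 366. In backbone ESCs none of the 8 and 10 did, in S91K-Y191F ESCs 2 of 11 and 35 of 52, and in parental ESCs 71 of 116 and 5 of 15. Of all 829 regions, 687 were broad only in WDR5WT, C9 or H9 lists, 60 only in backbone, S91K-Y191F or parental lists, and 82 in both sets. Among those 60, 46 had no peak in any embryoid body list and 5 covered an end of a protein-coding gene. The authors removed blacklisted regions from the embryoid body lists, as their names say, so for these regions absence and removal cannot be told apart.

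Width was partly repeated between replicates. Of the broad peaks of H9 replicate 1, 214 of 300 (71.3%) overlapped a broad peak of replicate 2, and 214 of 366 (58.5%) did so the other way. In C9 these were 149 of 189 (78.8%) and 149 of 299 (49.8%), and in WDR5WT 231 of 355 (65.1%) and 230 of 470 (48.9%). In parental ESCs 12 of 116 broad peaks of replicate 1 (10.3%) were broad again in replicate 2, although 90 of them had a peak of some width there, and 13 of 15 (86.7%) were broad the other way. In backbone ESCs these were 8 of 8 and 8 of 10, and in S91K-Y191F ESCs 7 of 11 and 7 of 52. Over all regions, 371 were broad in 1 list only, 108 in 6 or more and 98 in all 6 of the WDR5WT, C9 and H9 lists. Peaks of any width were more widespread: 775 of 829 regions had one in 6 or more lists, 632 in 8 or more and 52 in all 12. A broad region had a peak in a median of 9 ESC lists, and another ESC region in 4.

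In lists with few broad peaks, the same regions were called over shorter stretches or not at all. Peaks in general were also shorter there. Median widths over all peaks were 471 to 592 bp in backbone, S91K-Y191F and parental lists and 620 to 666 bp in WDR5WT, C9 and H9 lists. The part of depth was not tested. Backbone libraries had a peak in 65 and 190 of the 829 regions with median widths of 602 and 642.5 bp, and S91K-Y191F libraries in 379 and 687 with 771 and 1019 bp. WDR5WT libraries had one in 783 and 787 with 1933 and 2050 bp, C9 in 756 and 768 with 1519.5 and 1768.5 bp, and H9 in 782 and 787 with 1802 and 1965 bp. Parental libraries had one in 756 and 377 with 1211 and 762 bp. Parental replicate 1 therefore called as many of the regions as C9 replicate 1, at a smaller median width.

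Several of the regions that were broad in the most lists lie at gene starts. The region over Rap2b (chr3:61362877-61366030) had peaks of 0 and 422 bp in backbone ESCs (0 marks no peak), 1788 and 2075 bp in S91K-Y191F, 2946 and 2989 bp in WDR5WT, 2747 and 2960 bp in C9, 2216 and 3130 bp in H9, and 2208 and 1511 bp in parental ESCs. It was broad in 8 lists, and the backbone peaks were far shorter than all others. The region over Nrp1 (chr8:128356364-128360393), which also holds the lncRNA A930035F09Rik and Mir1903, had no peak in backbone ESCs, 2134 and 1453 bp in S91K-Y191F, 3689 and 3822 bp in WDR5WT, 3798 and 3745 bp in C9, 3451 and 3677 bp in H9, and 2958 and 938 bp in parental ESCs. Jun (chr4:95049833-95053804, shared with its antisense RNA Junos) had 0 and 460 bp in backbone, 767 and 1121 bp in S91K-Y191F, 3697 and 3788 bp in WDR5WT, 3738 and 3725 bp in C9, 3847 and 3954 bp in H9, and 2520 and 869 bp in parental ESCs. At Nrp1 and Jun the 6 WDR5WT, C9 and H9 widths stood above all others. In embryoid bodies the Jun peaks were 802 and 2234 bp in double knockout and 1564 and 901 bp in parental libraries, so the genotypes overlapped.

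Further regions were broad in 8 or 9 lists. The region over Crlf2, a receptor subunit for the cytokine TSLP (chr5:109555278-109559478), had 0 and 788 bp in backbone, 1158 and 2526 bp in S91K-Y191F, 3761 and 3827 bp in WDR5WT, 3765 and 4201 bp in C9, 3836 and 4126 bp in H9, and 3926 and 2036 bp in parental ESCs. It was broad in 9 lists, as was a region 3419 bp from an end of Ism1, which encodes a secreted protein (chr2:139676778-139679312). Ism1 widths were 2021 bp in S91K-Y191F replicate 2, 2219 to 2413 bp in WDR5WT, C9 and H9, and 2148 and 2009 bp in parental ESCs. Spaca6, needed for sperm and egg fusion, and Gm20783 also had regions broad in 8 lists, as did a region over the lncRNA Gm32139, which overlaps a protein-coding gene but has no gene end within 100 kb. A region 3969 bp from Pramel6, a gene of the PRAME family (chr2:87514834-87518489), was broad in 8 ESC lists at 2159 to 3034 bp and had no peak in any embryoid body list.

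The regions broad in 11 or 12 lists lay over pseudogenes. On chr17:39842940-39848888, over the ribosomal RNA pseudogene Rn18s-rs5 and the lncRNA AY036118, all 12 ESC lists had a peak of 5940 to 5948 bp and no embryoid body list had one. On chr1:24611482-24616229, over the pseudogenes Gm10222 and Gm10925, backbone and S91K-Y191F lists all had 4738 bp, WDR5WT 2486 and 888 bp, C9 4608 and 4598 bp, H9 4325 and 4608 bp and parental ESCs 4748 and 4739 bp, again with none in embryoid bodies. Where such sequence has near-identical copies, short reads cannot tell them apart. How the authors treated reads with several matches is not given in the sources used here. A further region, chr9:2999945-3005410, was broad in 6 lists and has no annotated feature over it and no protein-coding gene within 100 kb. It had 5431 to 5466 bp in backbone and S91K-Y191F lists, at most 738 bp in WDR5WT, C9 and H9 lists, and 5432 and 5431 bp in parental lists.

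Besides the regions just described, the longest regions were of 2 kinds. The longest of all, chr3:6297344-6307800, had 909 and 1775 bp in backbone ESCs, 1768 and 8652 bp in S91K-Y191F, 331 and 588 bp in WDR5WT, 0 and 576 bp in C9, 884 and 461 bp in H9, and 10457 and 3615 bp in parental ESCs. That on chr10:27818538-27826090 was also widest in these libraries, with 7343 bp in S91K-Y191F replicate 2, at most 1094 bp in WDR5WT, C9 and H9, and 7553 bp in parental replicate 1. Both lie over 100 kb from any protein-coding gene end, as do regions on chr2:80811728-80817529 and chr2:22001889-22007254, which were widest in parental replicate 1 at 5802 and 5366 bp. Of the 10 widest regions, 3 overlapped protein-coding genes and were widest in WDR5WT, C9 or H9 lists. A second region at Crlf2 reached 5521 bp in H9 replicate 2 and Irs2, an adaptor of the insulin receptor, 4496 bp in WDR5WT replicate 2. Vcan, which encodes the matrix proteoglycan versican (chr13:89739184-89743525), had none in backbone ESCs, 0 and 758 bp in S91K-Y191F, 2623 and 4276 bp in WDR5WT, 4342 and 3884 bp in C9, 2644 and 3976 bp in H9, and 2332 and 0 bp in parental ESCs.

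**Figure D2:**
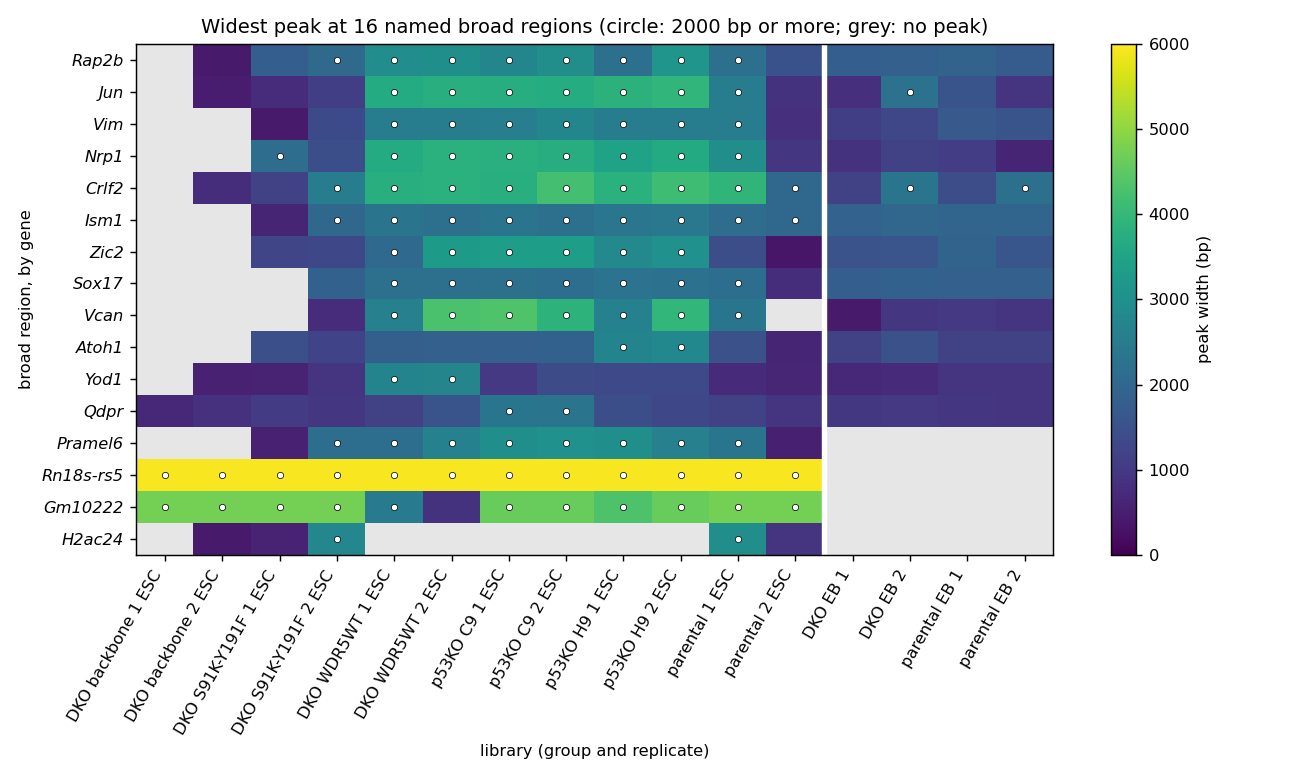
Width in bp (colour) of the widest peak at 16 named broad regions in 12 ESC and 4 embryoid body libraries; circles mark 2000 bp or more and grey marks no peak. The Jun row runs from no peak and 460 bp in backbone to 3954 bp in H9 ESCs, the Rn18s-rs5 row is at 5940 to 5948 bp in every ESC list and empty in embryoid bodies, and H2ac24 is broad only in S91K-Y191F replicate 2 and parental replicate 1.

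Few regions were broad in both libraries of a single group and nowhere else: 1 in backbone, 0 in S91K-Y191F, 29 in WDR5WT, 4 in C9, 7 in H9 and 0 in parental ESCs. Yod1, a deubiquitinase gene (chr1:130715233-130717975, shared with Pfkfb2), had 2717 and 2735 bp in WDR5WT and at most 1372 bp in any other list. The region at 4930426D05Rik had 2743 and 2744 bp in WDR5WT, and that near Fam155a had 2646 and 2201 bp. Qdpr, encoding an enzyme that recycles tetrahydrobiopterin (chr5:45448579-45450905), had 2327 and 2303 bp in C9 and at most 1570 bp elsewhere, with a peak in all 12 lists. Tmem231, a gene of the ciliary transition zone, had 2133 and 2065 bp in C9, and a region near Soga3 had 2184 and 2348 bp. Atoh1, a proneural transcription factor gene (chr6:64727461-64730253), had 2710 and 2792 bp in H9 and at most 1873 bp elsewhere. Man2a1, a Golgi mannosidase gene, had 2410 and 2220 bp in H9 and Cdh16, a cadherin gene, 2122 and 2334 bp. The backbone region, near Lyzl1, had 2042 and 2003 bp there, and 1630 and 1889 bp in S91K-Y191F. All 10 of these regions had a peak of over 1000 bp in at least 1 other group.

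Chromosome 8 held 92 of the 829 regions (11.1%) and 7.84% of the other ESC regions. Of the broad peaks, none of 8 and 10 lay there in backbone ESCs, 9.09% and 15.4% in S91K-Y191F, 12.1% and 11.9% in WDR5WT, 15.3% and 10.7% in C9, 13.7% and 11.5% in H9, and 4.31% and 0% in parental ESCs. Among peaks of any width, chromosome 8 held 7.64% to 13.4% in the 10 other lists, against 4.75% and 5.26% in parental ESCs. Parental replicate 1, with 116 broad peaks, thus had a lower chromosome 8 share than any WDR5WT, C9 or H9 list, among broad peaks and among all peaks.

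By gene position, broad regions lay close to genes. The summit of the widest peak was at most 1000 bp from the start or end of a protein-coding gene in 469 of 829 regions (56.6%), against 10789 of 49303 other ESC regions (21.9%). Of the 829, 511 covered a gene end, 691 overlapped a protein-coding gene and 74 had no gene end within 100 kb. At least 1 RefSeq transcription start lay in 515 regions (62.1%), and starts of at least 2 genes in 135 (16.3%), against 19.6% and 2.99% of other ESC regions, which are shorter. In regions with a single annotated transcription start, the broad ones reached a median of 916 bp upstream and 1396 bp downstream of it (325 regions). Other regions with a single annotated start reached 408 bp upstream and 575 bp downstream (7423 regions). The longer arm was the downstream one in 69.8% of these broad regions and 68.4% of these other regions.

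Per library, the gene end share of broad peaks followed the 2 sets of lists. Broad peaks were at a gene end in 0% and 0% in backbone ESCs, 0% and 32.7% in S91K-Y191F, 55.8% and 66.4% in WDR5WT, 56.1% and 55.5% in C9, 58.3% and 60.1% in H9, and 31.0% and 0% in parental ESCs. Other peaks of the same lists were at one in 34.1% and 53.1% in backbone, 56.2% and 41.8% in S91K-Y191F, 32.0% and 32.4% in WDR5WT, 31.6% and 26.8% in C9, 30.3% and 30.2% in H9, and 33.7% and 51.2% in parental ESCs. In WDR5WT, C9 and H9 every library had the higher share in broad peaks, and in the other groups every library had it in other peaks. The difference, broad minus other, was -43.6 ± 13.4 points in backbone, -32.7 ± 33.3 in S91K-Y191F, 28.9 ± 7.25 in WDR5WT, 26.6 ± 3.03 in C9, 28.9 ± 1.31 in H9 and -26.9 ± 34.3 in parental ESCs (SD, n = 2 each). Over the 6 groups its mean was -3.13 points, and a two-sided exact sign-flip permutation test over groups gave p = 0.781 (the smallest possible is 0.03125). Without S91K-Y191F replicate 1 the mean was 0.795 points and without parental replicate 2 it was 0.907 points, each with the opposite sign. With only WDR5WT, C9 and H9 lists the mean was 28.1 points. These are the 3 groups with a positive difference, a subset chosen after seeing the data. Its exact permutation p = 0.25, the smallest that 3 groups allow, was fixed by that choice and decides nothing.

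**Figure D3:**
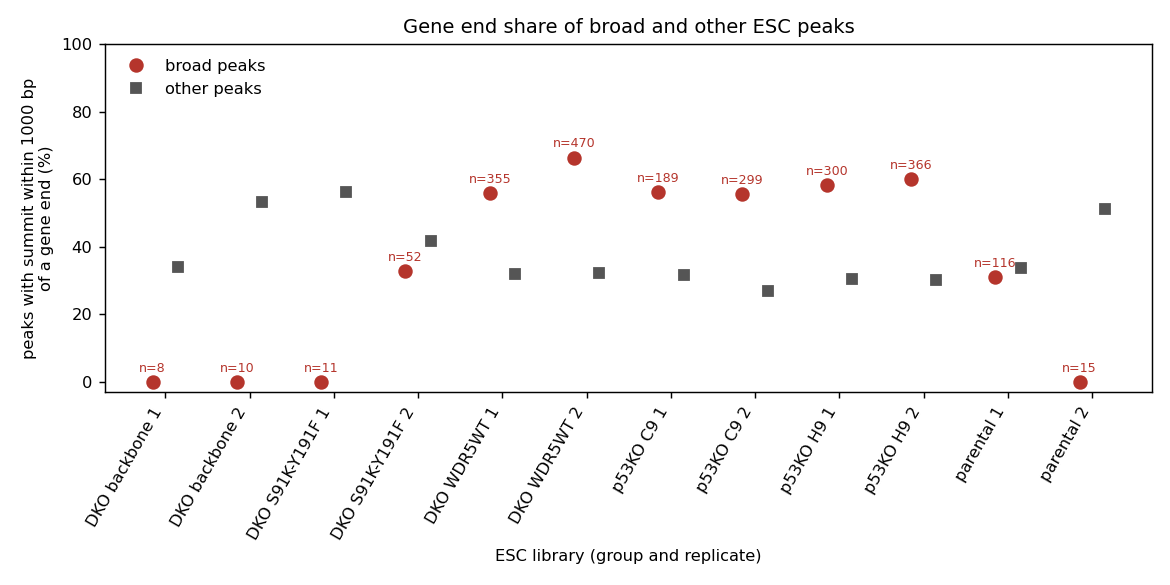
Percentage of broad peaks (circles, n above each) and of other peaks (squares) whose summit lies within 1000 bp of a protein-coding gene end, in each ESC library. Broad peaks are higher than other peaks in the 6 WDR5WT, C9 and H9 libraries (55.5% to 66.4% against 26.8% to 32.4%) and lower in the 6 others, where 4 lists of 8 to 15 broad peaks have none at a gene end.

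Across gene lists, a broad region lay within 1000 bp of an end of 650 of the 12552 protein-coding genes that had any ESC region there (5.18%). Among neuroectoderm and eye field genes it was 8 of 28 with any region (32 in the list), which is 28.6%. Zic2, a zinc finger factor of neural development (chr14:122473326-122476872), had none in backbone, 1259 and 1302 bp in S91K-Y191F, 2055 and 3260 bp in WDR5WT, 3348 and 3370 bp in C9, 2835 and 3038 bp in H9, and 1449 and 356 bp in parental ESCs. All of its WDR5WT, C9 and H9 peaks were wider than all others. Gli3, an effector of Hedgehog signalling, was broad in 4 lists at up to 2451 bp, and Zic5 in 3 at up to 2251 bp.

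Among mesoderm, endoderm and trophectoderm regulators, 3 of 15 genes with any region (26 in the list) were at a broad one. Sox17, an endoderm factor (chr1:4491636-4493931), had none in backbone, 0 and 1868 bp in S91K-Y191F, 2212 and 2214 bp in WDR5WT, 2215 and 2174 bp in C9, 2292 and 2242 bp in H9, and 2160 and 779 bp in parental ESCs. It was broad in 7 lists at 2160 to 2292 bp, a range that the threshold of 2000 bp cuts off from below. Foxa2, also of endoderm, reached 3449 bp in WDR5WT replicate 2 and Foxc1, a mesoderm factor, 2459 bp there. Of pluripotency genes 5 of 29 (34 in the list) were at a broad region, among them Sall1, a zinc finger factor (3573 bp in H9 replicate 2), Trim28, a corepressor (2417 bp in WDR5WT replicate 2), and Tdgf1, a co-receptor of Nodal (2202 bp in parental replicate 1), each broad in 1 list.

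Of immediate early genes, which respond within minutes to stimulation, 4 of 22 (25 in the list) were at a broad region. Besides Jun these included Btg1, an antiproliferative factor (broad in 3 lists, up to 2280 bp), and Atf3, a stress-induced factor (2348 bp in H9 replicate 1). Of Wnt, Nodal, BMP and FGF signalling genes it was 3 of 31 (34 in the list): Dusp6, an ERK phosphatase, at up to 3037 bp in H9 replicate 1, Spry2, an inhibitor of FGF signalling, at 2182 bp in H9 replicate 2, and Bmp7, a BMP ligand, at 2051 bp in WDR5WT replicate 1. Vim was the 1 fibroblast and mesenchyme gene of 8 (17 in the list), with 0 and 0 bp in backbone, 432 and 1348 bp in S91K-Y191F, 2519 and 2545 bp in WDR5WT, 2567 and 2753 bp in C9, 2522 and 2548 bp in H9, and 2511 and 812 bp in parental ESCs. None of the 23 p53 target genes with any region (24 in the list) and none of the 6 Hox genes (39 in the list) were at a broad one.

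The remaining lists ranged from 4.35% to 8.20%, beside 5.18% over all genes. Chromatin regulators, with COMPASS subunits and WDR5 partners, had 2 of 34 (41 in the list): Kmt2a, the MLL1 methyltransferase that works with WDR5 (2440 bp), and Arid1b, a subunit of the BAF remodeller (2790 bp), both broad in WDR5WT replicate 2 only. Splicing and RNA-binding factors had 4 of 49 (54 in the list), with U2af2 and Hnrnpu and, beside Enoph1, Hnrnpdl. Ribosomal protein genes had 3 of 69 (76 in the list), of which Rpl7 and Rpl36 lie beside the nearer genes Rdh10 and Lonp1. Ubiquitously expressed genes had 2 of 32 (35 in the list), Hsp90ab1 and Gapdh, and replication and cell cycle genes 2 of 28 (31 in the list), Cdk6 and E2f3. Canonical histone genes had 5 of 61 (64 in the list). H2ac24 (chr13:21831440-21834448) had 0 and 437 bp in backbone, 596 and 2775 bp in S91K-Y191F, no peak in any WDR5WT, C9 or H9 list, and 2959 and 921 bp in parental ESCs. It had no peak in embryoid bodies. H2ac18 and H3c14 share a region with 2287 bp in S91K-Y191F replicate 2 and no peak in embryoid bodies. Histone genes come in near-identical copies, so the copy that each read came from is uncertain.

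**Figure D4:**
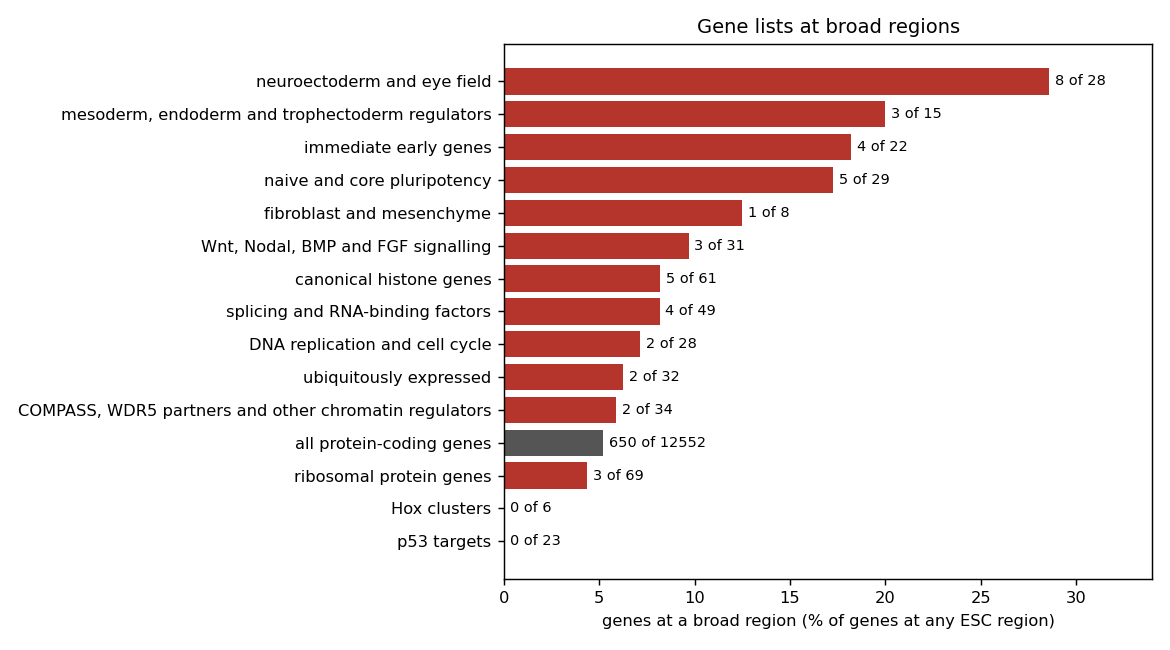
Genes with a broad region within 1000 bp of an end, as a percentage of the genes with any ESC region there, for 14 gene lists and for all protein-coding genes (grey bar); numbers at the bars are counts. Neuroectoderm and eye field genes have 8 of 28, p53 targets 0 of 23, and all genes 650 of 12552.

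Embryoid body lists did not enter the choice of regions. Of the 829 regions, 746 and 753 (90.0% and 90.8%) had a peak in the double knockout libraries and 743 and 742 (89.6% and 89.5%) in the parental ones. Of other ESC regions, 61.0% and 67.7% had one in the double knockout libraries and 60.1% and 56.0% in the parental ones. The difference, broad minus other, averaged 28.8 points and was positive in 4 of 4 libraries (two-sided exact sign-flip permutation p = 0.125, the smallest possible). Broad peaks were also among the strongest of each ESC list, at a median percentile of 92.5 to 99.4 by the authors' signal. The part of signal in this difference and in the gene end difference was not tested. A longer region can meet a peak more readily, and the part of length was not tested. When the summit of the widest ESC peak had to lie in an embryoid body peak, the difference was 28.2 points. That rule does not remove width. The widest embryoid body peaks at broad regions had medians of 1024 to 1339 bp, against 343 to 364 bp over whole lists. The difference was 15.7 points with a threshold of 3000 bp and 15.7 points with no window left out. Other ESC regions called in more ESC lists were also more often found in embryoid bodies. Among regions with a peak in 6 or more ESC lists, the difference was 11.03 and 7.65 points in the double knockout libraries and 11.99 and 14.99 points in the parental ones, a comparison chosen after seeing the data. With regions chosen only from backbone, S91K-Y191F and parental lists, the difference turned to -6.24 points (exact permutation p = 0.125). With those from WDR5WT, C9 and H9 lists only it was 29.9 points. Both subsets were chosen after seeing the data.

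In all 4 embryoid body lists 730 of the 829 regions (88.1%) had a peak, against 49.3% of other ESC regions, and in none 66 (7.96%), against 26.6%. Of the 730, 502 covered a gene end (68.8%), against 7 of the 66. In regions with a peak in 2 to 5 ESC lists, 38.5% of broad regions (20 of 52) and 41.2% of other regions were in all 4 embryoid body lists. In regions with a peak in 6 or 7 ESC lists, 83.9% of broad and 64.2% of other regions were. For 8 ESC lists these were 94.4% and 80.5%, for 9 or 10 lists 93.6% and 88.4%, and for 11 or 12 lists 90.7% and 88.6%. Broad regions were thus below other regions at 2 to 5 ESC lists, above them by most at 6 or 7 and 8 lists, and close to them at 11 or 12.

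**Figure D5:**
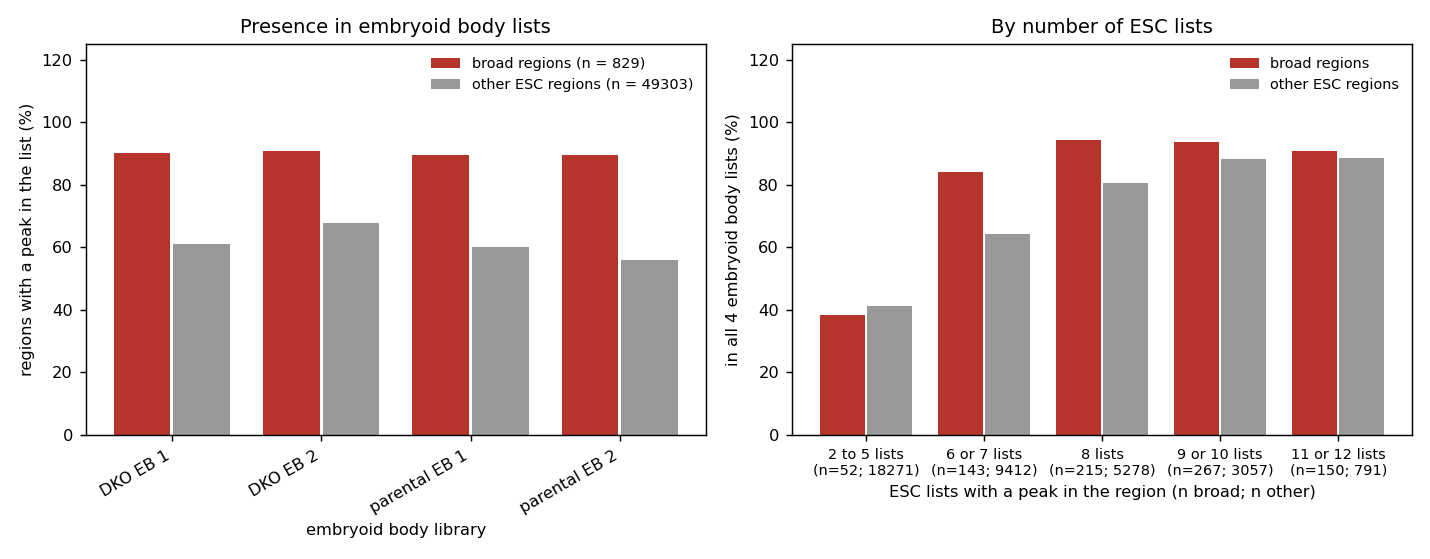
Percentage of broad regions and other ESC regions with a peak in each embryoid body library (left), and percentage with a peak in all 4 embryoid body lists by the number of ESC lists with a peak (right). Broad regions stand at 89.5% to 90.8% and other regions at 56.0% to 67.7%, and by number of ESC lists broad regions stand below others at 2 to 5 (38.5% against 41.2%) and close to them at 11 or 12 (90.7% against 88.6%).

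Between genotypes the embryoid bodies were close. Presence of broad regions averaged 90.4% ± 0.597 in double knockout and 89.6% ± 0.0853 in parental libraries (SD, n = 2 each), a difference of 0.844 points with a two-sided exact permutation p = 0.333, the smallest that 2 libraries against 2 allow. The widest embryoid body peak at a broad region had a median width of 1024 and 1339 bp in double knockout and 1275 and 1159.5 bp in parental libraries. The genotypes differed by -35.75 bp, within the spread (exact permutation p = 1); without double knockout replicate 1 the difference was 121.75 bp, and without parental replicate 1 it was 22 bp. Embryoid body peaks covered a median of 52.6% and 64.3% of the region in double knockout and 62.9% and 57.5% in parental libraries, and several peaks lay in 1 region for 40.8% and 35.2% of the regions with a peak in double knockout and 35.7% and 36.9% in parental libraries. Rap2b, for example, had 1788 and 1849 bp in double knockout embryoid bodies, against 1908 and 1743 bp in the parental ones. The authors' fold over local background at broad regions had medians of 3.82 and 3.95 in double knockout libraries and 4.03 and 4.10 in parental ones. At other ESC regions it had medians of 4.04 and 4.35 in double knockout libraries and 4.27 and 4.26 in parental ones. These were higher than at broad regions in each list, but they cover only regions with a peak in that list. That is 89.5% to 90.8% of broad regions and 56.0% to 67.7% of other ESC regions. Medians over all peaks of a list were 3.46 to 3.66. Embryoid body peaks of 2000 bp or more numbered 14 and 67 in double knockout and 88 and 40 in parental libraries. Such a peak lay at 13 and 48 of the broad ESC regions in double knockout and at 52 and 28 in parental libraries.

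Regions found in 1 embryoid body genotype only were rare. Both double knockout lists but no parental one had a peak at 4 broad regions (0.483%), against 3.87% of all ESC regions, and the reverse held at 0, against 0.858%. The 4 became 8 when double knockout replicate 1 was left out, 7 when its replicate 2 was, 10 without parental embryoid body replicate 1 and 2 without the broad peaks of parental ESC replicate 1. The 0 became 3 when double knockout replicate 2 was left out, and 5 and 1 without parental embryoid body replicates 1 and 2. A region 11584 bp from Gng12, a G protein subunit gene (chr6:67006689-67009777), had 478 and 245 bp in double knockout libraries and none in parental ones. A region on chr13:85468767-85470878, with no gene end within 100 kb, had 451 and 546 bp, and one 72390 bp from Atp2b1, a calcium pump gene, 364 and 371 bp. In ESCs the widest peaks at these 3 regions were 3089, 2112 and 2259 bp in the same order.

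The same count between ESC groups rests on the lists that chose the regions and is a description. A peak in both WDR5WT and neither backbone library was found at 604 broad regions (72.9%), against 47% of all ESC regions, and the reverse at 8 (0.965%), against 0.365%. For S91K-Y191F over backbone it was 202 (24.4%), against 4.92%, and 0 the other way, against 0.0279%. For backbone over parental ESCs it was 0, against 0.0259%, and for parental over backbone 204 (24.6%), against 5.55%. For all 4 p53 knockout over both parental libraries it was 49 (5.91%), against 10.9%, and the reverse 32 (3.86%), against 1.25%. Without S91K-Y191F replicate 1 the S91K-Y191F count was 496. Without backbone replicate 2 it was 312, and the parental count over backbone 313. Without parental replicate 2 the parental count over backbone was 565. Without parental replicate 1 the p53 knockout count was 406 and its reverse 14. List lengths differ between these libraries, and their part in the counts was not tested.

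As a check of the labels, of 8 ESC marker genes 1 to 7 had an end peak in each ESC list (1 and 1 in backbone, 1 and 5 in S91K-Y191F, 6 and 7 in WDR5WT, 6 and 5 in C9, 6 and 6 in H9, 7 and 2 in parental ESCs). In embryoid bodies 7 and 7 of these ESC markers had one in double knockout libraries and 8 and 8 in parental ones, so they did not set ESC lists apart. Of 6 neuroectoderm markers, 4 and 5 had one in double knockout libraries and 6 and 6 in parental ones, and 0 to 3 in ESC lists. Of 6 fibroblast markers, 0 to 2 had one in ESC lists and 5 in each embryoid body list. Embryoid body lists held 75673 to 93646 peaks, and ESC lists 1535 to 32709 before windows were left out. A longer list can meet more markers of any kind, and the part of list length in these counts was not tested. An open gene end is no measure of expression.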

How the data were processed

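The data are 16 ATAC-seq peak lists, 2 libraries for each of 8 groups. The submitters' processing notes name DESeq2, MACS2 2.1.2, Genrich 0.6, SAMtools and Bowtie2 2.3.5 beside build mm10 but give none of them a role, and transposition ran at 37 °C for 30 min per the labels' protocols. Each deposited ESC list gives a score, a signal of unstated scaling never under 200, a −log10 p and a summit offset; its q column is -1. The deposited lists of embryoid bodies hold a ratio (the authors' fold over local background), −log10 q, −log10 p and a score; blacklisted regions were removed by the authors, as the file names say. Counts and totals are not in these lists, so depth is unknown and intervals are not given.

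Merging, overlaps, nearest RefSeq genes (GRCm38.p6, 21887 protein-coding genes) and tests were computed in Python 3.11.15 with numpy 2.4.6, pandas 2.3.3 and matplotlib 3.10.9. The gene table has no strand, so a gene end is either end. Two-sided exact permutation tests compared libraries, and exact sign flips tested differences within groups or libraries. The region finder and the tests were checked on simulated lists. Named are the 10 regions broad in most lists, the 10 widest, up to 3 per group broad in both its libraries and no other group, up to 3 per direction found in 1 embryoid body genotype, up to 3 genes per list, and 3 on each side of the threshold. The regions, gene lists and comparisons were chosen with earlier results of these data known. Regions in 1 Mb windows dense with backbone peaks were left out.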

Additional observations from a re-analysis of the deposited data

Results flagged for a closer look

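The share of broad peaks at a gene end, minus that of other peaks, had opposite signs in different ESC groups, with both libraries of each group on the same side. It was -43.6 points in backbone, -32.7 in S91K-Y191F, 28.9 in WDR5WT, 26.6 in C9, 28.9 in H9 and -26.9 in parental ESCs. Both backbone lists, S91K-Y191F replicate 1 and parental replicate 2 had 8 to 15 broad peaks each and none at a gene end. S91K-Y191F replicate 2, with 52 broad peaks, was at -9.13 points, and parental replicate 1, with 116, at -2.71 points. The difference between the groups was not tested. Backbone, S91K-Y191F and parental lists have 8 to 116 broad peaks each, and 46 of the 60 regions that were broad only in them had no embryoid body peak.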

How the results depend on the processing

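Alternatives were other widths for a broad peak (1500, 2500 and 3000 bp), other window rules, the 50% of peaks with the smallest p in each list, merging across 200 bp, autosomes only, stricter overlap in embryoid bodies, gene end windows of 500 and 2500 bp, each library left out, and list subsets chosen after seeing the data. The presence of broad minus other regions in embryoid bodies was positive in every setting but 1: it was -6.24 points with only backbone, S91K-Y191F and parental lists. It fell to 15.7 points at 3000 bp, 15.7 with no window left out and 11.4 among regions in 6 or more ESC lists, against 28.8. The causes were not tested. Numbers of broad regions were 3116, 202 and 85 at 1500, 2500 and 3000 bp, 142 with only backbone, S91K-Y191F and parental lists, and 672 to 829 without single libraries. The gene end difference turned positive at 1500 bp (4.77 points), with a 2500 bp gene window (6.21), with no window left out (0.404) and with only WDR5WT, C9 and H9 lists (28.1), and ran from -7.17 to 0.907 without single libraries.

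At 1500, 2500 and 3000 bp, one-sided regions numbered 2354, 142 and 50 for WDR5WT over backbone (477 to 724 without single libraries), and 16, 4 and 3 for the reverse (7 to 12). For S91K-Y191F over backbone they numbered 684, 47 and 18 (170 to 496), and the reverse was 2 at 1500 bp. For parental over backbone they were 699, 55 and 23 (175 to 565), and for backbone over parental 2 at 1500 bp (0 to 2). For p53 knockout over parental they were 238, 10 and 2 (36 to 406), and for the reverse 82, 11 and 7 (14 to 35). For double knockout embryoid bodies alone they were 24, 1 and 1 (2 to 10), and for parental ones 6 at 1500 bp (0 to 5). With no window left out, backbone over WDR5WT had 113, backbone over parental 1 and parental over p53 knockout 124. In the upper 50% of each list, double knockout embryoid bodies alone had 1, parental ones 4, backbone over WDR5WT 5, p53 knockout over parental 79 and the reverse 21. Parental embryoid bodies alone had 1 with 50% overlap and 2 with summits. Double knockout embryoid bodies alone had 1 with only WDR5WT, C9 and H9 lists. With the other 6 lists, S91K-Y191F over backbone had 46 and parental over backbone 60. At equal list length, broad peaks were 0.683% of S91K-Y191F, 5.87% of WDR5WT, 4.44% of C9 and 5.58% of H9 and 1.24% of parental lists.

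The difference in embryoid body width ran from -193.25 to 121.75 bp without single libraries, with 121.75 bp without double knockout replicate 1 and 22 bp without parental replicate 1, both of the opposite sign. The labels give no reason to pair libraries by number, and the widths of same-numbered embryoid body libraries did not deviate together (r = -0.028 across 730 regions, which are not independent). With replicate number as a block (replicate block, exact sign-flip permutation over 2 pairs), the presence difference was 0.844 points (p = 0.5, the smallest possible) and the width difference -35.75 bp (p = 1), so no call changed. Missing counts and unknown depth limit every comparison of list lengths.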

Other observations

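Gene families were counted after the named regions had been seen, so these counts are descriptions. A broad region lay within 1000 bp of an end of 5 of 15 Sox genes with any ESC region there, 7 of 35 Fox genes, 3 of 14 Klf genes and 2 of 5 Zic genes, which all encode transcription factors, beside 5.18% of all genes. Other transcription factor families had 2 of 13 (Pou), 1 of 6 (Irx), 1 of 6 (Tbx), 0 of 3 (Gata), 0 of 4 (Lhx), 0 of 5 (sine oculis homeobox) and 0 of 4 (Pax). The Sox genes were Sox4, Sox11, Sox12, Sox17 and Sox21. Receptor-type tyrosine phosphatases had 4 of 15, cadherins and protocadherins 7 of 40, GABA-A receptor subunits 3 of 15 and potassium channels 4 of 55. Of zinc finger genes named Zfp it was 13 of 298 and of olfactory receptor genes 0 of 43. Of imprinted genes it was 1 of 18, Peg3.

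The 45 dense windows that were left out held 706 broad peaks in 192 merged regions, up to 29214 bp wide, of which 165 had no embryoid body peak and 22 had one in all 4 lists. Backbone libraries had 133 and 126 of their broad peaks there, S91K-Y191F 124 and 103, WDR5WT 15 and 20, C9 9 and 13, H9 12 and 9, and parental ESCs 47 and 95.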
